A study of Mus musculus with 3 samples.

Results

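Among 101978 narrow H3K4me3 peaks of the testis, 1998 lay at the starts of noncoding RNA genes. They were chosen by position alone. The peak centre had to lie on an autosome inside one of the regions that the study marked as independent of PRDM9, within 1 kb of the transcript start of a gene that the GENCODE vM21 annotation of mm10 types as lincRNA, antisense, processed_transcript or bidirectional_promoter_lncRNA, and more than 5 kb from the start of every protein-coding gene. The 1998 peaks made up 5.23% of the 38191 autosomal peaks inside those regions. They belonged to 1881 genes, and by type 1417 were lincRNA, 394 antisense, 185 processed_transcript and 2 bidirectional_promoter_lncRNA.

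The tissue was whole testis of 23-week-old (C57BL/6J x CAST/Eij)F1 males with the Prdm9 genotype Humanized/CAST, so that every library carried the humanized and the CAST allele and no second genotype was compared. Chromatin was immunoprecipitated with an antibody to H3K4me3 (Abcam ab8580) in 2 replicates, and 1 input library served as the background. The replicates are described in the methods as testes of different littermates. The series text speaks of a single male instead, and the spread between the replicates would then be technical. Over all narrow peaks the replicates held 17621116 and 19094837 fragments and the input 1250138. Germ cell genes were marked in this tissue: 8 of the 9 germ cell markers examined had a narrow peak within 1 kb of a start, with enrichments from 9.43 to 113.4 and a median of 41.8. No gene lay near that median: Ddx4, Dazl, Sycp1 and Sycp3 had 67.0 to 113.4, and Stra8, Tnp1, Prm1 and Prm2 had 9.43 to 16.5. Sertoli cell markers had such a peak at 3 of 4 genes (median 15.4, up to 39.4), Leydig cell markers at 3 of 4 (median 11.6) and genes of other tissues at 1 of 6 (1.46). The value of 39.4 was at Rhox5, with 16 and 26 fragments over 0 in the input. The share of all coding genes with such a peak is not given here, so these counts describe only the markers examined. Enrichment, as deposited, is the fold over local background minus 1, estimated from both replicates together, so that 0 means no mark above background. In bulk tissue a level does not separate the share of cells that carry the mark from the amount of it in each cell.

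H3K4me3 is laid down at the starts of active and poised genes by methyltransferase complexes that are recruited in part by unmethylated CpG islands, and these islands cover the starts of most broadly expressed genes. In germ cells PRDM9 adds the same mark at recombination hotspots, which is why a map of the testis holds promoters and hotspots side by side. Long noncoding RNAs are transcripts without a long open reading frame. Many are made in few tissues, and the testis transcribes an unusually large share of them.

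The sequences below are windows of 300 bases around the peak centre in mm10, 5′ to 3′ on the strand of the noncoding gene, with each CG dinucleotide in capitals. They show how far apart in base composition the starts that carry the mark were. The first 4 are strongly marked and rich in CG: 6720427I07Rik (chr13:48546113-48546412, minus strand, 34 CG), Dleu2, the host gene of a tumour-suppressive microRNA pair (chr14:61648366-61648665, minus, 35 CG), 1700020I14Rik, named after a testis cDNA clone (chr2:119594371-119594670, plus, 32 CG), and the snoRNA host Snhg8 (chr3:123508014-123508313, minus, 17 CG).
6720427I07Rik: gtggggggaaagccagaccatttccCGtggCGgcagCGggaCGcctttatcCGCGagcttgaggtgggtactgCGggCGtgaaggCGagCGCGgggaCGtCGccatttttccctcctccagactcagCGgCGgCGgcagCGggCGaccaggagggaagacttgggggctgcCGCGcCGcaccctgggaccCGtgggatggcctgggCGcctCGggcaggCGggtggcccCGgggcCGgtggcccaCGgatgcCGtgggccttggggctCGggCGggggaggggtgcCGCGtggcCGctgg
Dleu2: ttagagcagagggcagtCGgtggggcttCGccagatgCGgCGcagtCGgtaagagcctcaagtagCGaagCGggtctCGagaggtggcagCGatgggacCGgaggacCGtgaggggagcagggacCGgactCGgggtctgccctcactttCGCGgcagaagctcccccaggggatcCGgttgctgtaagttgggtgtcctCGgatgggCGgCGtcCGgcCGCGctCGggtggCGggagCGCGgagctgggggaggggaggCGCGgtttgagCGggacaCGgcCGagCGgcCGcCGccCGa
1700020I14Rik: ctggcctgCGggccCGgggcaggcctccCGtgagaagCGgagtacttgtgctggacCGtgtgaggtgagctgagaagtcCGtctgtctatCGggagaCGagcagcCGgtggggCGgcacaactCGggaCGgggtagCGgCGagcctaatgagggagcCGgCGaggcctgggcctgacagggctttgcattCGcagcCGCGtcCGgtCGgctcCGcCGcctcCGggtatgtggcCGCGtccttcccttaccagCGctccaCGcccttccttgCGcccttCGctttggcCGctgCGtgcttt
Snhg8: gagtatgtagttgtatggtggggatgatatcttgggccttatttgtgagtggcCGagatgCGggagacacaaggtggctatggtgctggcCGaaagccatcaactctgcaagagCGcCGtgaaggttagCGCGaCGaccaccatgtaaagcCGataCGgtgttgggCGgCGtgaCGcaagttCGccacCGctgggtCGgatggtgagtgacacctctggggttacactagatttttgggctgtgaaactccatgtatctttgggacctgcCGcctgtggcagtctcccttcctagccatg

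The other 4 hold fewer CG. Mir670hg (chr2:94178508-94178807, minus, 8 CG) was strongly marked all the same. 1700021F02Rik (chr5:103346666-103346965, plus, 4 CG) lay closest to the median of the testis clone names in both enrichment and CpG ratio. Meg3, an imprinted RNA made from the maternal chromosome (chr12:109541939-109542238, plus, 12 CG), had an enrichment of 9.93, near the median of all members, and Gm17033 (chr12:106558254-106558553, plus, 6 CG) had the lowest enrichment of all 1998 peaks.
Mir670hg: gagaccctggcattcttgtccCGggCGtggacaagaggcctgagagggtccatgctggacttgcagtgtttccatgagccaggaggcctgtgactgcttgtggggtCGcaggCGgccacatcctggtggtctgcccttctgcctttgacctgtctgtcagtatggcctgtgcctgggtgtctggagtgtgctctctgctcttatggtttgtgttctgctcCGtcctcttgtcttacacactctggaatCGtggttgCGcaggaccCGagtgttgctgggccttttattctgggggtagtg
1700021F02Rik: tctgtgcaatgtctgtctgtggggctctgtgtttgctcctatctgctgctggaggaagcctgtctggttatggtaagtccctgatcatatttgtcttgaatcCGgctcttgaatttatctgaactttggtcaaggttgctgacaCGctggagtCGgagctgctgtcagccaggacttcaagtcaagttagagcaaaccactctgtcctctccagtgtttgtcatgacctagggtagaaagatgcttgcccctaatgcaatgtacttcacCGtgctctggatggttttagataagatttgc
Meg3: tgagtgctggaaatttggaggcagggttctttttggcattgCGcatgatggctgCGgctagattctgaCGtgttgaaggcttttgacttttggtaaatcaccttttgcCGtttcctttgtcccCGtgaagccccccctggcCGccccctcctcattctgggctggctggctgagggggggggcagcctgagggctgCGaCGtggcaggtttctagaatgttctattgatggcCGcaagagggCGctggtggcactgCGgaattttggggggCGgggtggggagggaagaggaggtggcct
Gm17033: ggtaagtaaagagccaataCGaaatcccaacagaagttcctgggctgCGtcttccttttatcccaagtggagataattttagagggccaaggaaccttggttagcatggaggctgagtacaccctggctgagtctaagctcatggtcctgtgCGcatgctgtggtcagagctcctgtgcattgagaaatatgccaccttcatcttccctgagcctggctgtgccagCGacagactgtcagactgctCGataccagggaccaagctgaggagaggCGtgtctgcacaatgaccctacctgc

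The mark at noncoding starts was seen in both replicates, with more fragments than in the input nearly everywhere. Fragments are given as deposited, and the libraries were not scaled to each other. Over the centre of the median peak lay 82 fragments of replicate 1, 96.5 of replicate 2 and 9 of the input. Replicate 1 ranged from 3 to 2459 fragments, replicate 2 from 5 to 2653 and the input from 0 to 93. Both replicates exceeded the input at 1988 of the 1998 peaks (99.5%), where 92.6% of all narrow peaks did, and the deposited p of the peak caller was under 1e-10 at 1973 (98.7%), where 80.7% of all narrow peaks were. Since every member had already been called as a peak, in these mice and in others, these shares describe the peaks and test nothing. Across the 1998 peaks the log2 fragments of the replicates correlated with a Pearson's r of 0.983 and a Spearman's rho of 0.984. Peaks of the same libraries are not replicates, so no p is given.

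**Figure D1:**
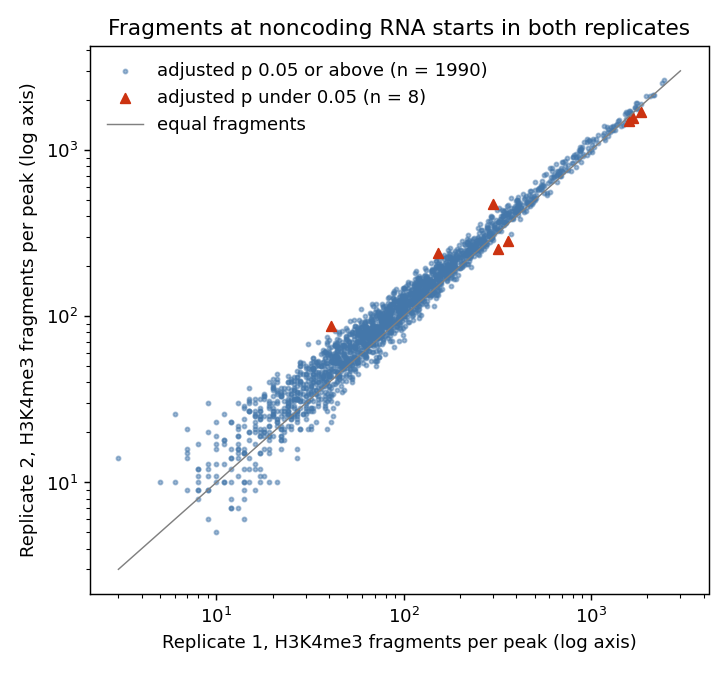
H3K4me3 fragments over the peak centre in replicate 1 (x axis) and replicate 2 (y axis), both on log axes, for the 1998 peaks at noncoding starts; 1 point is 1 peak and the line marks equal fragments. Most points lie slightly above the line, replicate 2 being the larger library, and the 8 triangles mark the peaks whose share of fragments differed between the replicates.

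Few of these peaks differed between the replicates. An exact two-sided binomial test of the fragments of replicate 1 against its share of 48.0% over all narrow peaks, with Benjamini-Hochberg adjustment over all 101978, called 8 of the 1998 peaks, where it called 0.773% of all narrow peaks. Replicate 1 was the higher at 5 of them (0.425% of all peaks) and replicate 2 at 3 (0.348%). The clearest was AL805899.1, with 298 and 472 fragments over 10 in the input (exact binomial test, adjusted p = 0.000173). At 9430091E24Rik the counts were 1843 and 1705 over 30, a small difference at high depth (exact binomial test, adjusted p = 0.00114). With the variance widened to the spread seen over all peaks, 3 members were called, where 0.31% of all narrow peaks were.

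The centres of the peaks lay mostly just inside the transcribed side of the start, as they did at coding genes, but more loosely. Relative to the nearest noncoding start the median centre was 166 bp downstream, with an interquartile range from -56.75 to 362 bp, and 1438 centres (72.0%) were downstream. At 16255 PRDM9-independent autosomal peaks within 1 kb of a coding start the median was 136 bp, with a range from 41 to 232 bp, and 80.8% were downstream. Within 250 bp of the start lay 45.6% of the noncoding and 71.8% of the coding centres. The bin from 100 to 200 bp downstream was the fullest in both classes, with 17.4% and 30.5% of the peaks. Nucleosomes next to the start on its downstream side are where H3K4me3 is usually strongest.

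**Figure D2:**
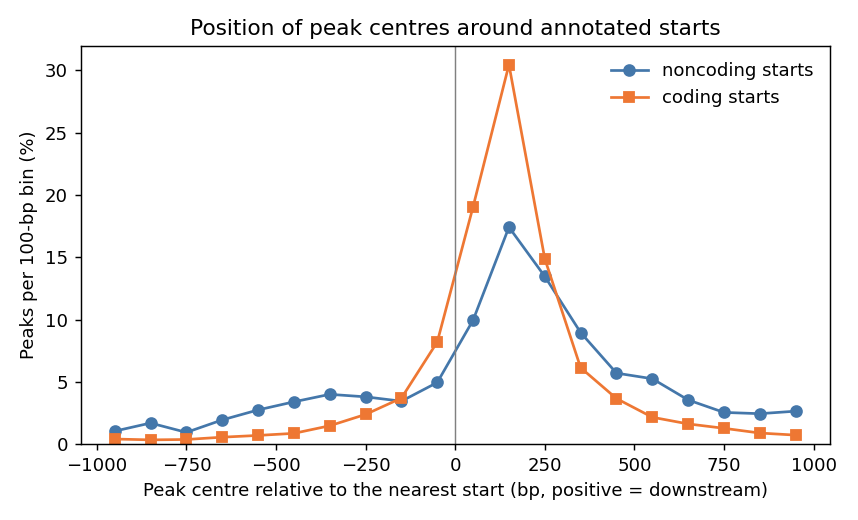
Share of peaks (y axis, percent) in bins of 100 bp by the position of the peak centre relative to the nearest annotated start (x axis, bp, positive downstream), for 1998 peaks at noncoding starts and 16255 at coding starts. Both curves peak between 100 and 200 bp downstream, at 17.4% and 30.5%.

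The question of the first comparison was how strongly noncoding starts carried the mark beside coding starts. Noncoding starts were less enriched. The deposited enrichment had a median of 11.0 at noncoding starts (interquartile range 5.92 to 19.6) and of 31.0 at coding starts (12.7 to 60.8). The median coding peak held 589 and 644 fragments over 19 in the input. On the log2 scale, with 0.1 added, the medians per autosome differed by -1.50 ± 0.25 (SD over 19 autosomes), a 0.353-fold enrichment, and noncoding starts were lower on 19 of 19 autosomes (exact two-sided permutation test that flips the signs of autosomes, p = 3.8e-06, the smallest it can give, and 8.6e-06 after Benjamini-Hochberg adjustment over the 9 tests made). With 1 added instead, which gives the fold over background itself, the difference was -1.43 ± 0.23. The test treats autosomes as units and does not measure the spread between mice.

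The classes differed in base composition too. The observed to expected CpG ratio within 500 bp of the centre, which is near 1 where CG occurs as often as the C and G content allows, had a median of 0.283 at noncoding and 0.689 at coding starts, and the autosome medians differed by -0.404 ± 0.028 (19 of 19 lower, adjusted exact permutation p = 8.6e-06). A ratio of at least 0.6 is called CpG-rich here. It was reached by 210 noncoding (10.5%) and 63.7% of coding peaks. Among CpG-poor peaks alone the difference in enrichment was -0.31 ± 0.19 on the log2 scale (adjusted exact permutation p = 8.6e-06), and among CpG-rich peaks alone it was -0.82 ± 0.64 (adjusted p = 4.8e-05). Noncoding starts were lower in both classes of sequence, and within the CpG-poor class by less than over all peaks. These comparisons within a class were chosen after seeing the data.

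The difference in width did not pass the test by medians and passed it by means. The broad peak that held the centre, a run of enriched 100-bp bins, had a median width of 3300 bp in both classes. The autosome medians differed by -0.02 ± 0.17 on the log2 scale (exact permutation test, adjusted p = 0.644, lower on 10 and higher on 7 of 19 autosomes). With means in place of medians noncoding starts were narrower, by -0.14 ± 0.16 (adjusted exact permutation p = 0.0018), and with starts within 500 bp the medians differed by -0.10 ± 0.21 (adjusted p = 0.054). Split by sequence, the sign depended on the class. CpG-poor noncoding starts had broader peaks than CpG-poor coding starts by 0.15 ± 0.21 (adjusted exact permutation p = 0.0064), and CpG-rich ones were narrower, at -0.23 ± 0.43 (adjusted p = 0.033).

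The second comparison set noncoding starts against 12700 PRDM9-independent autosomal peaks more than 5 kb from any annotated start, where enhancers and unannotated promoters would fall. Noncoding starts were more enriched and wider. Peaks far from starts held 52 and 61 fragments over 8 of the input in the median, with an enrichment of 6.67 (3.93 to 11.9) and a width of 2100 bp. Enrichment was higher at noncoding starts by 0.70 ± 0.19 on the log2 scale, 1.63-fold, on 19 of 19 autosomes (adjusted exact permutation p = 8.6e-06). Width was greater by 0.63 ± 0.17, 1.55-fold, also on 19 of 19 (adjusted exact permutation p = 8.6e-06). The CpG ratio did not pass the test, with autosome medians of 0.286 and 0.301 on average (difference -0.0147 ± 0.0358, exact permutation test, adjusted p = 0.115).

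**Figure D3:**
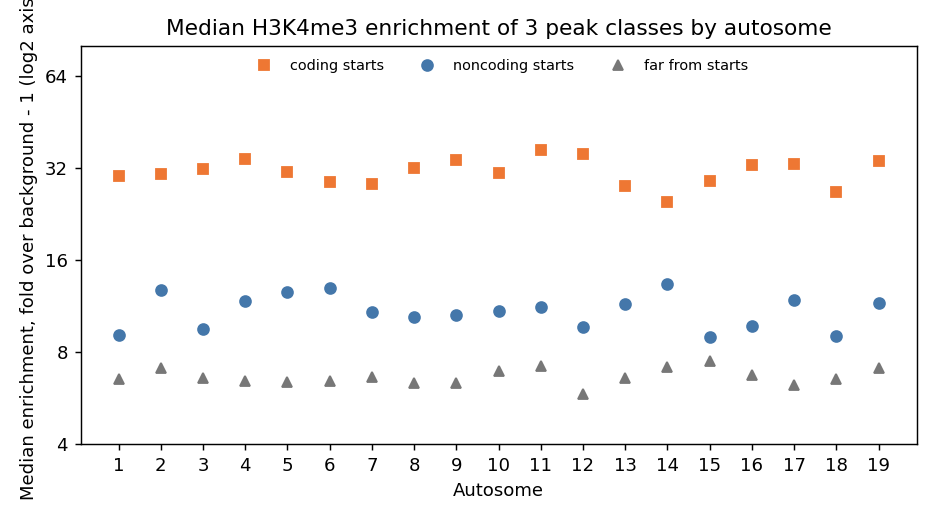
Median deposited enrichment (y axis, fold over background minus 1 on a log2 axis) of the 3 classes of PRDM9-independent peaks on each of 19 autosomes (x axis); each point is the median over that autosome's peaks in the class. On each autosome the coding starts lie highest, the noncoding starts in between and the peaks far from starts lowest, and the noncoding medians run from 8.94 on chromosome 15 to 13.4 on chromosome 14.

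Among the noncoding starts themselves, CpG content marked off a small strong group. The median of the 210 CpG-rich members was 462 and 494 fragments over 19 of the input, with an enrichment of 26.3. Enrichment was higher in the CpG-rich than in the CpG-poor members by 1.43 ± 0.68 on the log2 scale, 2.69-fold, on 18 of 19 autosomes (exact permutation test, adjusted p = 1.4e-05). With the limit at a ratio of 0.4 in place of 0.6 the difference was 0.76 ± 0.38. The exception was chromosome 18, where 7 CpG-rich members had a median of 8.00 and the CpG-poor ones 9.52. Input fragments moved with CpG content too, with medians of 7, 8, 10 and 19 in the 4 bins of rising CpG ratio, and their part in the result was not tested.

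Below the limit of 0.6 the relation was shallow. Median enrichment was 9.48 in the 678 members with a ratio under 0.2, 9.71 in the 714 from 0.2 to 0.4 and 12.4 in the 396 from 0.4 to 0.6. Over all members the Spearman correlation of CpG ratio and enrichment was 0.245, given as a description. Of the 111 members with an enrichment over 50, 54 were CpG-rich, and of the 396 under 5, 9 were. Among the 100 members with the most fragments 78 were CpG-rich, and among the 100 with the fewest 2 were. Width went the other way at first: the median broad peak measured 3800 bp in the lowest CpG bin, 3300 bp and 2400 bp in the next, and 3100 bp in the CpG-rich members.

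**Figure D4:**
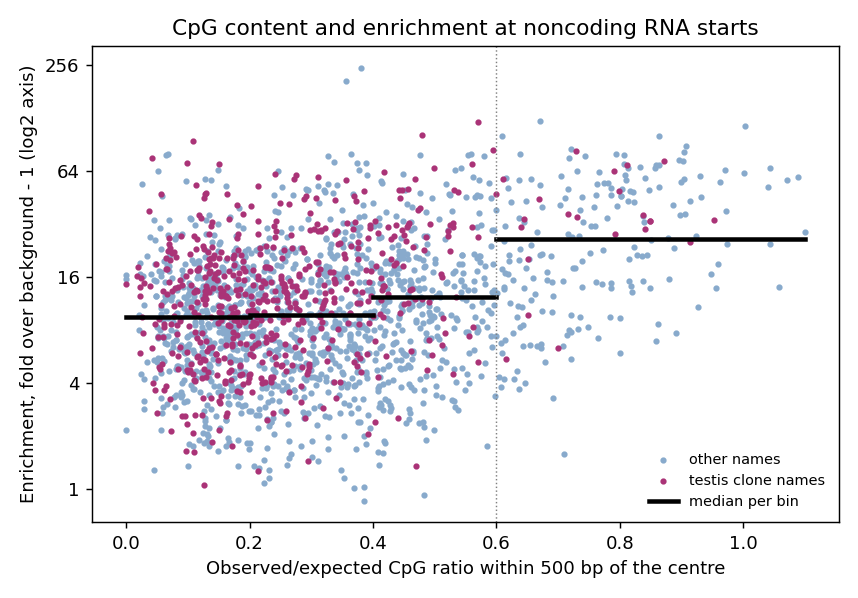
Deposited enrichment (y axis, fold over background minus 1 on a log2 axis) against the observed to expected CpG ratio within 500 bp of the centre (x axis) for the 1998 peaks, with genes named after testis cDNA clones in purple, the other genes in blue, and the bin medians as black bars. The bars stand at 9.48, 9.71, 12.4 and 26.3, and most purple points lie to the left of the dotted line at 0.6.

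The genes with the most fragments were mostly little known. Gm10505 (chromosome 17, centre 27325298) had 2459 and 2653 fragments, but also 78 in the input, so that its enrichment was 30.7, and its centre lay in no broad peak. 6720427I07Rik had 2407 and 2547 fragments over 23 and an enrichment of 101.3, a ratio to input of 107.7 ± 4.3 (SD, n = 2 replicates). Both replicates are divided by the same input count, so the SD of such ratios, here and below, leaves out the error of that count. Gm11205 followed with 2173 and 2155 over 23, Tmem250-ps with 2134 and 2139 over 31, and 1700020I14Rik with 2075 and 2118 over 27. The remaining genes among the first 10 were Zswim6, Gm36445, 2410006H16Rik, Dleu2 and 9430091E24Rik. Of these 10, 9 were CpG-rich and Gm10505, with a ratio of 0.569, was just below the limit.

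Enrichment ranked the genes differently where the input was thin. The highest values were 247.5 at Gm13943, with 235 and 291 fragments over 1 in the input, and 208.4 at Gm11691, with 195 and 248 over 1. Such ratios rest on a single input fragment. Of the members with at least 10 input fragments, Dleu2 was highest at 114.6, with 1738 and 1918 fragments over 15, followed by 6720427I07Rik, Gm11205, D730003I15Rik at 84.8 and 1700012D14Rik at 82.9. In all, 13 members had no input fragment at their centre. AC166748.2, the member with the most input fragments, held 340 and 430 over 93 and had an enrichment of 3.76.

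At the low end the fragments of the ChIP libraries were about as many as those of the input. Gm17033 held 9 and 12 fragments over 10 in the input (enrichment 0.855), Gm10287 13 and 16 over 13 (0.917) and Gm29154 3 and 14 over 7 (1.01). The caller still placed all 3 above local background, with deposited p of 5.7e-08, 8.4e-11 and 3.6e-07. Their broad peaks measured 300 bp, 400 bp and 600 bp, far below the median of 3300 bp. The ratio to input was 1.05 ± 0.21 at Gm17033 and 1.21 ± 1.11 at Gm29154 (SD, n = 2). At all 3 genes only replicate 2 had more fragments than the input.

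Single genes went against the relation with CpG content. Mir670hg, a microRNA host, had 2 marked starts that went against the trend. The centre at position 94178658 of chromosome 2, with a CpG ratio of 0.449, held 1064 and 1164 fragments over 17 (enrichment 61.6). The one at 94243308, with a ratio of 0.611, held 54 and 56 over 12 (enrichment 4.18). 1700031P21Rik, at a ratio of 0.570, reached 120.9 with 1085 and 1228 fragments over 9, although its centre lay 945 bp upstream of the nearest start. Gm16280, antisense within Stab2, had 1474 and 1416 over 36 (enrichment 37.7) at a ratio of 0.528. The 300 bases around its centre held 25 CG, so it was not poor in CG close to the centre.

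A further group was formed by name, the genes named after testis cDNA clones. These are the RIKEN genes whose names begin with the number of a clone library made from adult testis, such as 1700020I14Rik or 4930440C22Rik, so the names record that a transcript was once cloned from this organ. Of 716 such genes with a noncoding start more than 5 kb from coding starts on the autosomes, 567 (79.2%) had a PRDM9-independent peak within 1 kb. Of 5623 genes with other names, 1415 (25.2%) had one. By library the share was 78.3% of 258 genes named like 1700020I14Rik, 80.8% of 343 named like 4930440C22Rik and 76.3% of 80 named like 4933413J09Rik. These shares are a description, since a gene's type, length and neighbours were not matched.

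The testis clone genes were more enriched in spite of fewer CG. Their 588 peaks had a median CpG ratio of 0.224 against 0.321 for the 1410 others, and 22 (3.74%) against 13.3% were CpG-rich. Their median fragments were 91 and 108 over 8, against 80 and 93 over 9. Median enrichment was 12.6 against 10.0, and the autosome medians differed by 0.34 ± 0.35 on the log2 scale, 1.26-fold, higher on 16 of 19 autosomes (exact permutation test, p = 0.000736, adjusted p = 0.0011). Within the CpG-poor peaks the difference was 0.42 ± 0.37 (adjusted exact permutation p = 0.00027). The median broad peak measured 4000 bp against 2900 bp. The other members were not uniform. Among them, 139 peaks of other RIKEN names had a median enrichment of 13.2, above the testis clone names, and 49 of these were CpG-rich. The 1004 peaks of Gm names had a median of 9.79 and the remaining 267 of 10.9. The 3 testis clone peaks with the most fragments, 1700020I14Rik, 1700030C10Rik (1753 and 1796 over 26) and 1700012D14Rik (1760 and 1769 over 20), were CpG-rich, with enrichments of 73.0, 64.1 and 82.9. The CpG-poor 1700031P21Rik, described above, had a higher enrichment, 120.9.

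lincRNA and antisense starts did not differ beyond the spread over autosomes. Median enrichment was 10.5 at 1417 lincRNA and 11.5 at 394 antisense starts, a difference of autosome medians of -0.06 ± 0.54 on the log2 scale (exact permutation test, adjusted p = 0.644, lower on 14 of 19). The 185 processed_transcript starts had a median of 12.4, and 48 of them (25.9%) were CpG-rich against 8.89% of lincRNA starts. Over all 6339 genes of these types with a start more than 5 kb from coding starts, 1982 (31.3%) had a PRDM9-independent peak within 1 kb of it, 795 had only another narrow peak and 3562 (56.2%) had none. The share with such a peak was 31.5% for lincRNA, 27.2% for antisense and 43.0% for processed_transcript genes. These counts take each gene by its own start, whereas the 1881 genes given first are those whose start was nearest to a member.

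Well-known noncoding genes had enrichments from 1.59 to 114.6. Hosts of small nucleolar RNAs, whose introns yield the guides that direct rRNA modification, were the most uniform. Of 22 such genes 16 were annotated, 8 had an eligible start and 7 of these a peak: Snhg5, Snhg6, Snhg8, Snhg12, Snhg15, Snhg17 and Snhg20. Their median enrichment was 50.1, with a range from 32.7 to 82.4, against 11.0 over all members and 4.57 over all narrow peaks, and 6 of the 7 were CpG-rich. Snhg5 held 1350 and 1321 fragments over 21, and Snhg8 held 973 and 1131 over 12. The lowest of the 7, Snhg15, still had 605 and 652 over 18. All 7 lay above the upper quartile of the members, 19.6. Snhg14, the long host in the Prader-Willi region, had no such peak.

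Imprinted noncoding genes differed widely. Of 10 genes 8 had an eligible start and 4 a peak. Kcnq1ot1, transcribed from the paternal chromosome out of an intron of Kcnq1, held 1007 and 1070 fragments over 18 (enrichment 54.2). Airn, antisense within Igf2r and also paternal, held 496 and 528 over 21 (22.8). Both maternally expressed genes were far lower: H19 held 55 and 52 over 11 (4.45), and Meg3 66 and 105 over 8 (9.93). The ratio to input was 4.86 ± 0.19 at H19 and 10.7 ± 3.4 at Meg3 against 24.4 ± 1.1 at Airn and 57.7 ± 2.5 at Kcnq1ot1 (SD, n = 2). Kcnq1ot1 and Airn were CpG-rich, with ratios of 0.764 and 0.773, and H19 and Meg3 were not, at 0.497 and 0.590. Parental origin and CpG content thus split these genes alike and cannot be told apart here. With 2 genes of each parental origin, these values describe the single genes only. No test was made between genes. Rian, Mirg, Snhg14 and A330076H08Rik had no peak that met the rule.

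The long-studied RNAs, a list of nuclear and cytoplasmic ones, ranged in enrichment from 8.31 to 78.7. Malat1, an abundant RNA of nuclear speckles, held 1227 and 1286 fragments over 15 (enrichment 78.7) within a broad peak of 11700 bp. Neat1, the scaffold of paraspeckles, held 360 and 400 over 15 (23.7) within 18400 bp. Lncpint had peaks at 2 starts inside a broad peak of 9200 bp: the CpG-rich one, with a ratio of 0.962, held 1713 and 1801 over 30, and the other, at 0.423, held 328 and 345 over 23. Pvt1, next to Myc, had 291 and 297 over 26 (10.5), Miat 116 and 153 over 15 (8.31), and Trp53cor1, a target of p53 also called lincRNA-p21, 33 and 49 over 4 (9.52). Of the 10 genes in this list 7 were eligible and 6 had a peak, with a median of 13.6 over 7 peaks.

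Hosts of microRNAs often had several marked starts of unequal strength. Of 12 genes 10 were eligible and 7 had 13 peaks, with a median of 21.5. Dleu2 was marked at 2 starts on chromosome 14, at 61648516, shown above, and at 61681717, where 1410 and 1527 fragments lay over 32 (enrichment 43.1). Mir9-3hg had 468 and 498 over 21 at one start and 1231 and 1224 over 29 at another. Mir99ahg, with 4 marked starts, had the most of any gene. Along the gene they held 80 and 107 fragments over 4, 49 and 85 over 7, 84 and 84 over 9, and 29 and 26 over 15. Their enrichments were 21.9, 8.88, 8.66 and 1.59 in that order. The input rose along the gene, the fragments did not fall steadily, and the first value rests on 4 input fragments. Mir155hg held 520 and 582 over 21 (24.6), Mir124a-1hg 450 and 430 over 23 (17.9) and Dnm3os, antisense within Dnm3, 80 and 96 over 10 (8.15).

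Of 11 noncoding neighbours of developmental genes 7 were eligible and 3 had a peak, with a median enrichment of 9.11. Rmst held 246 and 249 fragments over 15 (15.4), Pantr1 88 and 128 over 11 (9.11) and Dlx6os1, antisense to the homeobox gene Dlx6, 13 and 22 over 5 (3.16). Sox2ot, Hotair, Fendrr and Pantr2 had none. The 3 ratios to input were 16.5 ± 0.1, 9.82 ± 2.57 and 3.50 ± 1.27 (SD, n = 2, without the error of the shared input count).

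**Figure D5:**
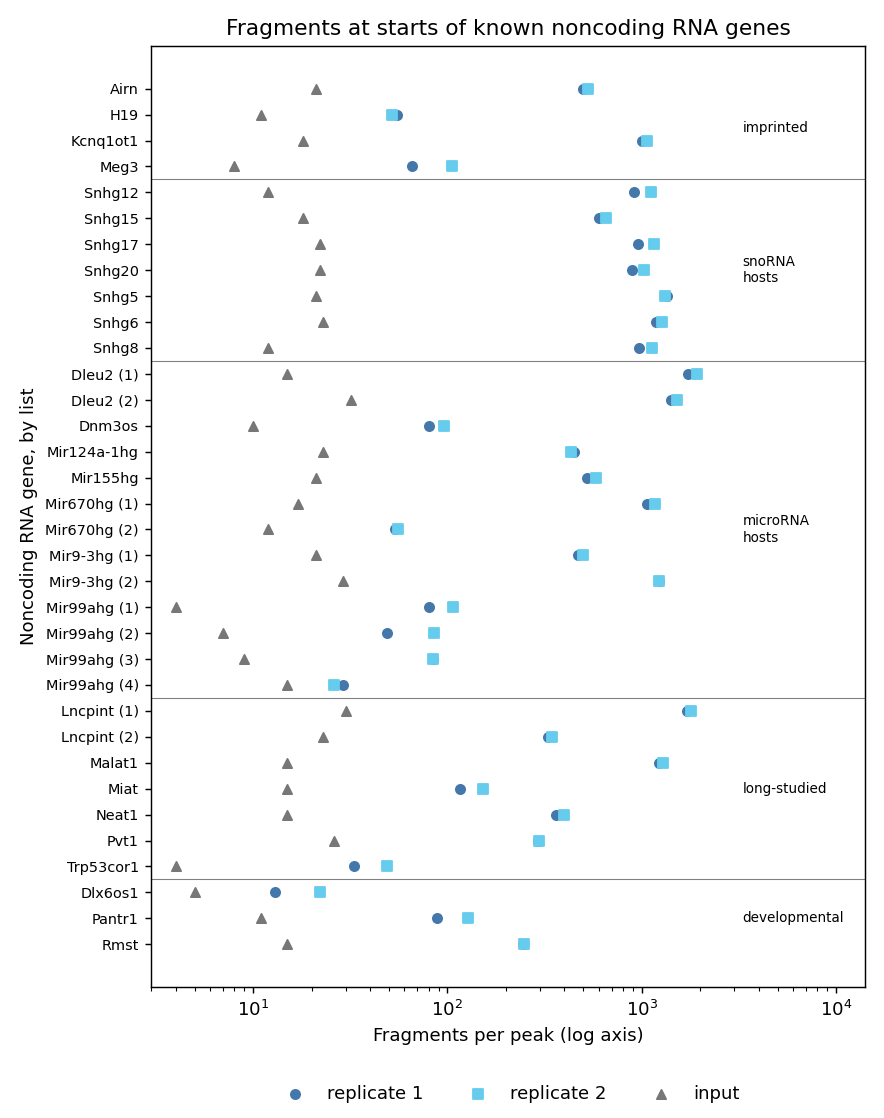
Fragments over the peak centre (x axis, log axis) in replicate 1, replicate 2 and the input for the noncoding genes of 5 lists (y axis); a number in brackets counts the marked starts of a gene in order of position. Both replicates lie to the right of the input at each gene, closest at the last start of Mir99ahg (29 and 26 over 15), and the snoRNA hosts cluster between 605 and 1350 fragments.

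Most members stood alone, but a few shared very wide marked regions. Of the genes 112 had 2 or more members. Of the 1998 centres, 4 lay in no broad peak. The other 1994 fell in 1894 broad peaks, 96 of which held 2 or more, and 1360 were the only narrow peak of their broad peak. In broad peaks of 10 kb or more lay 89 members. The widest measured 77900 bp on chromosome 14 and held 26 narrow centres, 3 of them members: Gm34059 (214 and 248 fragments over 11), 4933413J09Rik (131 and 166 over 7) and Slmapos2 (189 and 219 over 9). Their enrichments were 19.6, 19.8 and 21.2, nearly equal at these 3 of the 26 centres, and their CpG ratios 0.116, 0.0719 and 0.189. The next, of 64700 bp and 61300 bp, were neighbours on chromosome 13 and held 24 and 28 narrow centres. In the second of them Gm46430 held 410 and 495 fragments over 8 (enrichment 53.1).

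By chromosome the members numbered from 54 on chromosome 19 to 151 on chromosome 13, where they made up 8.36% of the PRDM9-independent peaks, against 3.28% on chromosome 11. The densest megabase was 37 to 38 Mb of chromosome 13, around F13a1, Ly86 and Rreb1, with 10 members of 9 genes and a median enrichment of 6.33. Megabases 81 to 82 and 83 to 84 of chromosome 18 held 8 each. Inside the body of a coding gene lay 340 members, with a median enrichment of 10.8 against 11.1 for those outside.

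Short motifs of promoter factors were counted within 150 bp of the centre on both strands, as a description. The GC box GGGCGGG, bound by SP factors, was in 8.71% of members, 30.0% of coding starts, 8.35% of peaks far from starts and 10.3% of all narrow peaks. Within the CpG-rich peaks it was in 35.2% of members and 36.7% of coding starts. Within the CpG-poor peaks, most of the members, it was in 5.59% of members and 18.2% of coding starts. CCAAT, the letters of NF-Y, was in 31.7% of members and 29.7% of all peaks, with 16.8% at coding starts. TATAAA was in 8.76% of members, 2.34% of coding starts and 10.1% of all peaks. AACGG, the core of MYB sites (A-MYB drives pachytene transcription), was in 17.1%, 21.8%, 17.0% and 15.6% of members, coding starts, far peaks and all peaks. CACGTG, the E-box, was in 6.41% of members and 5.97% of all peaks, and TGACGTCA, GCATGCGC and CCGGAAGT (the CRE, NRF1 and ETS letters) were in 0.350%, 1.35% and 2.15% of members and in 0.492%, 1.61% and 1.28% of all peaks. The motif letters with CG count toward the CpG ratio, so these shares and CpG content are not independent.

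The noncoding label did not hold for every gene in another annotation. Of the 1881 genes 1222 (65.0%) could be matched to RefSeq genes, too few for a check of the whole set. Among those matched, 1168 were lncRNA there, 12 and 5 were transcribed and other pseudogenes, and 37 genes with 40 peaks were protein-coding, among them Tmem250-ps, Zswim6, Ptpmt1 (1222 and 1373 fragments over 26) and Spata5l1 (1613 and 1679 over 22). Without these genes the difference from coding starts was -1.52 ± 0.25 and that from far peaks 0.68 ± 0.19 on the log2 scale, as large as with them.

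Members close to the limits of the rule held the following fragments. Just inside 1 kb of a start lay 4930440C22Rik, at -993 bp, with 24 and 30 fragments over 3, AC132957.1, at 991 bp, with 279 and 330 over 16, and Gm38551, at 988 bp, with 86 and 106 over 5. Just outside lay Gm27167, at 1001 bp, with 77 and 63 over 8, 4930549C15Rik, at 1001 bp, with 65 and 54 over 8, and 1700074H08Rik, at 1002 bp, with 105 and 120 over 9. The limit of 5 kb from coding starts fell between Gm47814, at 5021 bp with 236 and 244 over 4, and Gm45488, at 4937 bp with 41 and 43 over 1, while Gm49782, at 4923 bp, held 883 and 940 over 21.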

How the data were processed

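H3K4me3 ChIP-seq of whole testis was analysed in 1 group of 2 ChIP libraries, with 1 input. Reads were mapped to mm10 with BWA and Stampy and handled with SAMtools and bedtools, by the submitters' notes and the paper, and peaks came from a likelihood-ratio caller of the authors. The authors counted the fragments over each narrow peak centre, without normalization, and these counts differ with library size. The deposited enrichment is the authors' fold ratio over local background minus 1, with a minimum of 0, and the deposited p-value is from their test against an enrichment of 0, both from the replicates jointly. The authors' caller kept narrow peaks with p under 1e-06 and centres at least 1 kb apart, and merged 100-bp bins with p under 1e-05 into broad peaks. Of broad peaks and PRDM9-independent regions the authors deposited coordinates without a level. The regions come from other mice with different Prdm9 alleles.

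Peak centres were matched to GENCODE vM21 starts and to mm10 sequence, whose chromosome lengths hold the positions. CpG ratios used 500 bp on each side. Classes were compared by the difference of their medians on each autosome with at least 3 peaks of both, over 524288 sign patterns, and replicates by an exact binomial test. Both tests were tested on simulated data. RefSeq types were taken from gene symbols, synonyms and Entrez identifiers of GENCODE. The genes named are the 10 with the most fragments, the 5 of highest enrichment with at least 10 input fragments, members of 5 gene lists, and those at the extremes or limits described; the 2 highest enrichments on 1 input fragment, AC166748.2, Ptpmt1, Spata5l1 and Gm46430 were named after their values were seen. The members and lists were chosen with earlier results of these data known. Alternatives changed the pseudocount, distances, CpG window and limit, the summary per autosome and the replicates used. Scripts ran in Python 3.11.15 with scipy 1.17.1, pandas 2.3.3, numpy 2.4.6 and matplotlib 3.10.9. Peaks on the sex chromosomes were left out of the comparisons.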

Additional observations from a re-analysis of the deposited data

Results flagged for a closer look

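Peaks on the X chromosome were outside every comparison. The same rule found 35 of them there, and their median enrichment was 24.3, above the input at 35 of 35, with a range from 4.26 to 115.2. Their median fragments were 89 and 110 over 6 in the input. Of the 35 peaks 12 were CpG-rich, where 10.5% of the autosomal members were. The most fragments lay at C430049B03Rik (611 and 586 over 8) and at Jpx, an activator of Xist in female cells (479 and 420 over 9). Males carry a single X, and the input was lower here than the 9 fragments of the autosomal members. The parts of the lower input and of CpG content in the higher enrichment were not tested.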

How the results depend on the processing

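No paired analysis was possible because the input has no replicates and no second group shares the replicate numbers. Each class difference in enrichment kept its sign and its side of the threshold, except that lincRNA minus antisense turned to 0.053 (adjusted exact permutation p = 0.74) with starts within 500 bp. With the ChIP to input ratio of 1 replicate in place of the joint enrichment, the differences on the log2 scale ranged from -1.66 to -1.55 against coding starts, 0.65 to 0.67 against far peaks, 1.44 to 1.60 for CpG-rich minus CpG-poor, -0.063 to -0.056 for lincRNA minus antisense and 0.30 to 0.33 for testis clone names. The small difference in CpG ratio from far peaks was unstable: -0.019 with 250 bp on each side (adjusted p = 0.035) and without the RefSeq coding genes (-0.019, adjusted p = 0.039), but 0.0092 with means per autosome (0.22) and 0.0143 with starts within 500 bp (0.14), all by the exact permutation test. The width difference from coding starts was -0.14 with means (adjusted exact permutation p = 0.0018), 0.15 in CpG-poor and -0.23 in CpG-rich peaks. With widened variance 3 members differed between replicates, against 8, and 316 of all 101978 peaks, against 788. With a CpG limit of 0.4 the CpG-rich members exceeded the others by 0.76 in place of 1.43. The cause of these changes was not tested. Depth limits the weakest members, whose 3 to 16 fragments lie close to the input, and ratios over fewer than 5 input fragments are imprecise. The RefSeq and CpG class alternatives were chosen after seeing the data. For testis clone names no value was computed in CpG-rich peaks.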
